A study of Mus musculus with 6 samples.

Results

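Imprinted genes were examined in A20 cells, a BALB/c mouse B cell lymphoma line, with and without the TETact-v3 activation system. The 45 genes were chosen by name from known mouse imprinted clusters and were found in the count files through their Entrez identifiers, where 27179 identifiers were listed. All 45 were present, in 18 clusters. Of these, 21 are usually expressed from the maternal and 24 from the paternal allele, and 38 are protein-coding while 7 are long non-coding RNAs. The question addressed was whether loci under the control of DNA methylation moved in cells that carry a TET1 domain.

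Genomic imprinting restricts transcription of a gene to the copy inherited from one parent. The restriction is set by methylation laid down at CG-rich control regions in the egg or the sperm, and it is kept through later cell divisions by DNMT1 and by KRAB zinc finger proteins such as ZFP57 and ZFP445, which bring in TRIM28 and SETDB1. At several clusters a long non-coding RNA expressed from one allele, such as Airn or Kcnq1ot1, silences its protein-coding neighbours in cis. TET enzymes oxidise methylated cytosine and so open the way to its removal. Imprinted genes are best known for their roles in placenta, fetal growth and brain, and many members are imprinted in some tissues only, such as Cd81 and Tssc4 in placenta and Ube3a in neurons.

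RNA-seq covered 3 groups with 2 independently repeated samples each. Wild-type A20 cells were used as they were. Control sgRNA cells carried TETact-v3 and a non-targeting sgRNA, and Cd4 sgRNA cells carried TETact-v3 and an sgRNA against the Cd4 promoter. Both transduced groups expressed dCas9 with GCN4 (SunTag) epitopes that bind scFv-TET1CD, the catalytic domain of TET1, and the p65-hsf1 activator held by MS2 aptamers in the sgRNA. These were delivered by lentivirus and the transduced cells were assayed on day 7 after sgRNA transduction, whereas wild-type cells were not transduced, so the TET1 domain, the activator and the viral delivery cannot be told apart in a comparison with wild type. The study's methods describe enrichment of stably transduced cells by FACS in general, and do not name the sort used for the RNA-seq cells. A20 comes from an inbred strain, so the counts carry no allelic information and give the sum of both alleles.

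Total counts were 49778949 and 23194920 in wild type, 121623410 and 92285875 in control sgRNA cells, and 35316997 and 48466039 in Cd4 sgRNA cells. Values are given as CPM, which scales counts to one library size, after scaling by the TMM method, and a count of 3, used as the floor of detection, was worth 0.0270 to 0.140 CPM. The median gene differed by 0.28 on the log2 CPM scale between the control sgRNA replicates, against 0.08 between the wild-type and 0.09 between the Cd4 sgRNA replicates. The control sgRNA libraries therefore stood apart from each other, and mitochondrial genes took 6.63% and 11.5% of their counts, 5.96% and 6.90% in Cd4 sgRNA cells, and 2.65% and 2.69% in wild type. Cd4, the targeted gene, had 30959 and 40422 counts in Cd4 sgRNA cells and at most 127 in any other library. All 7 B cell markers examined (Cd79a, Cd79b, Ms4a1, Pax5, Cd22, Blnk, Ebf1) were detected, at a summed 2020 to 2021 CPM in wild type, 1263 to 1509 in control sgRNA and 1232 to 1294 in Cd4 sgRNA cells. Summed markers of T cells (0.560 to 0.853 CPM), fibroblasts (0.0430 to 0.532), placenta and embryo (0.258 to 1.06) and myeloid cells (1.48 to 6.38) were low. Of these markers, Cd3e, Col1a2, Cd14, Nanog and Tfap2c were at 0 in every library. Placenta and embryo markers summed to 0.258 and 0.327 CPM in wild type, 0.819 and 0.618 in control sgRNA and 0.732 and 1.06 in Cd4 sgRNA cells. Of these 6, 1 gene entered the tests, with log2 fold changes of 1.93 (control sgRNA) and 2.35 (Cd4 sgRNA) against wild type. Its wild-type level cannot exceed the wild-type sums, which were close to the limit of 0.219 CPM of the filter on low counts. It may have entered through the transduced libraries alone, so its difference from wild type is a description and no test. T cell and fibroblast sums were also above wild type in all 4 transduced libraries, and myeloid sums were not.

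RefSeq promoter windows of GRCm38.p6, each with 250 bases before and 50 bases after a transcription start, were matched for 37 of the 45 genes, which gave 53 windows. Trappc9, Rtl1, Peg10, Impact, Sgce, Peg13, H19 and Cdkn1c had no entry. The upstream bases of 6 windows are shown for the CG dinucleotides they hold, whose methylation was not analysed here. The genes form pairs that differ in their level here. Cd81 and Commd1 were well expressed and lower than in wild type, Mest and Nnat were low, and Peg3 and Nap1l5 were at or near 0. CG dinucleotides are in capitals.
Cd81, chr7:143052500-143052749, plus strand: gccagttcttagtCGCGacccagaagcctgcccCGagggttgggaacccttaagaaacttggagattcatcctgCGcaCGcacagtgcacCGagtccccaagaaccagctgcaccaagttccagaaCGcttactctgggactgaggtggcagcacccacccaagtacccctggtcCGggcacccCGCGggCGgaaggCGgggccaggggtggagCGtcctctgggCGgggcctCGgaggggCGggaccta
Commd1, chr11:22982285-22982534, minus strand: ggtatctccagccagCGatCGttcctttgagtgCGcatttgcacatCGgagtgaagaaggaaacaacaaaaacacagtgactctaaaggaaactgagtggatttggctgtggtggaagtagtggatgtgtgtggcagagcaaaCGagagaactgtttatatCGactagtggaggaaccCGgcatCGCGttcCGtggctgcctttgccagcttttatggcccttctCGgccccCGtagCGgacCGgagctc
Mest, chr6:30737800-30738049, plus strand: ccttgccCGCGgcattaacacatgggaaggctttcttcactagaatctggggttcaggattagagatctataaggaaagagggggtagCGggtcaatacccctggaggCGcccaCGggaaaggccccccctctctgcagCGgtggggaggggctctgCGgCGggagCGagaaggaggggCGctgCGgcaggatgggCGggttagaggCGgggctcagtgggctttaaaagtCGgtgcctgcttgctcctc
Nnat, chr2:157559828-157560077, plus strand: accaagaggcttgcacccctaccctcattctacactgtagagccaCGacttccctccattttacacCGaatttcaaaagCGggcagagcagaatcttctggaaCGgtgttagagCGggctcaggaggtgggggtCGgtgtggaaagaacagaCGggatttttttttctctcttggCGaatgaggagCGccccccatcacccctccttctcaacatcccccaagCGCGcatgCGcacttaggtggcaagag
Peg3, chr7:6730420-6730669, minus strand: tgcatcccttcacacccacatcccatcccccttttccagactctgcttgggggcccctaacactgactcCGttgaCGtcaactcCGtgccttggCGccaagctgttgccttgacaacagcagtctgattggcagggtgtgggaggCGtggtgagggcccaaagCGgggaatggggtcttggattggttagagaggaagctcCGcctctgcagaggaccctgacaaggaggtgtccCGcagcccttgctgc
Nap1l5, chr6:58907127-58907376, minus strand: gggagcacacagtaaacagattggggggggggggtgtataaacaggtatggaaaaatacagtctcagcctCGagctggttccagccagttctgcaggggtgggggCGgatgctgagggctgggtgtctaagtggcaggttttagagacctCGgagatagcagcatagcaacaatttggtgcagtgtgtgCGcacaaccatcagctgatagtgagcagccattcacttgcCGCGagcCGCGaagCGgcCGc
These stretches held 16, 14, 14, 12, 8 and 10 CG dinucleotides, in the order printed. The Peg3 window overlaps that of Usp29, which is transcribed from the opposite strand.

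Over the full windows, the median number of CG dinucleotides was 22 in the 18 windows of genes expressed well enough for testing and 11 in the 35 windows of the other genes, of which 11 windows of genes without a single count had a median of 13. The median over all 32851 windows of 27025 genes was 7. TGCCGC, the hexamer read by ZFP57 when methylated, was searched on both strands and occurred in 13 of the 53 windows (24.5%), at 12 genes, and in 11.6% of all windows. Of the 6 windows shown in part, taken in full, those of Mest and Nap1l5 held 2 matches each, Commd1 and Nnat 1 each, and Cd81 and Peg3 none. The 50 bases after the start are not printed, so not every match lies in the letters shown. TGCCGC itself holds a CG, and no share was computed among windows of like CG content. Some windows of one gene overlap, as for Mest, so windows are not independent. A match describes the letters in the window and not a bound site.

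Most imprinted genes were silent or close to it in A20 cells. A total of 15 of the 45 (33.3%) passed the filter on low counts and entered the tests, 12 had 0 counts in all 6 libraries, 11 had no more than 3 counts in any library and 7 exceeded 3 counts in at least one. The tested genes comprised 10 of the 21 maternally and 5 of the 24 paternally expressed genes. Since 0 counts in a library allow up to 3, the 12 genes without counts were below 0.0270 to 0.140 CPM, according to the depth of the library.

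Whole clusters fell into the silent class. In the Dlk1-Meg3 cluster, Meg3, Rian and Mirg (maternal non-coding RNAs) and Rtl1 (a retrotransposon-derived placental gene) had no count, and Dlk1, a Notch ligand family member, had 1 count in all. Peg3, Zim1 and Usp29 of the Peg3 cluster had none. Ndn and Magel2, neuronal genes of the Prader-Willi region, had none either, Mkrn3 had 2 counts, Peg12 had 3, and Snrpn, a splicing factor gene, reached at most 3 counts in a library. Peg10, Phlda2 and Ascl2, with roles in placenta, had 0 counts throughout. Sgce, Ppp1r9a, Plagl1, Rasgrf1 and Zdbf2 had 1, 3, 1, 3 and 2 counts over all libraries, and both counts of Zdbf2 were in wild type.

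**Figure D1:**
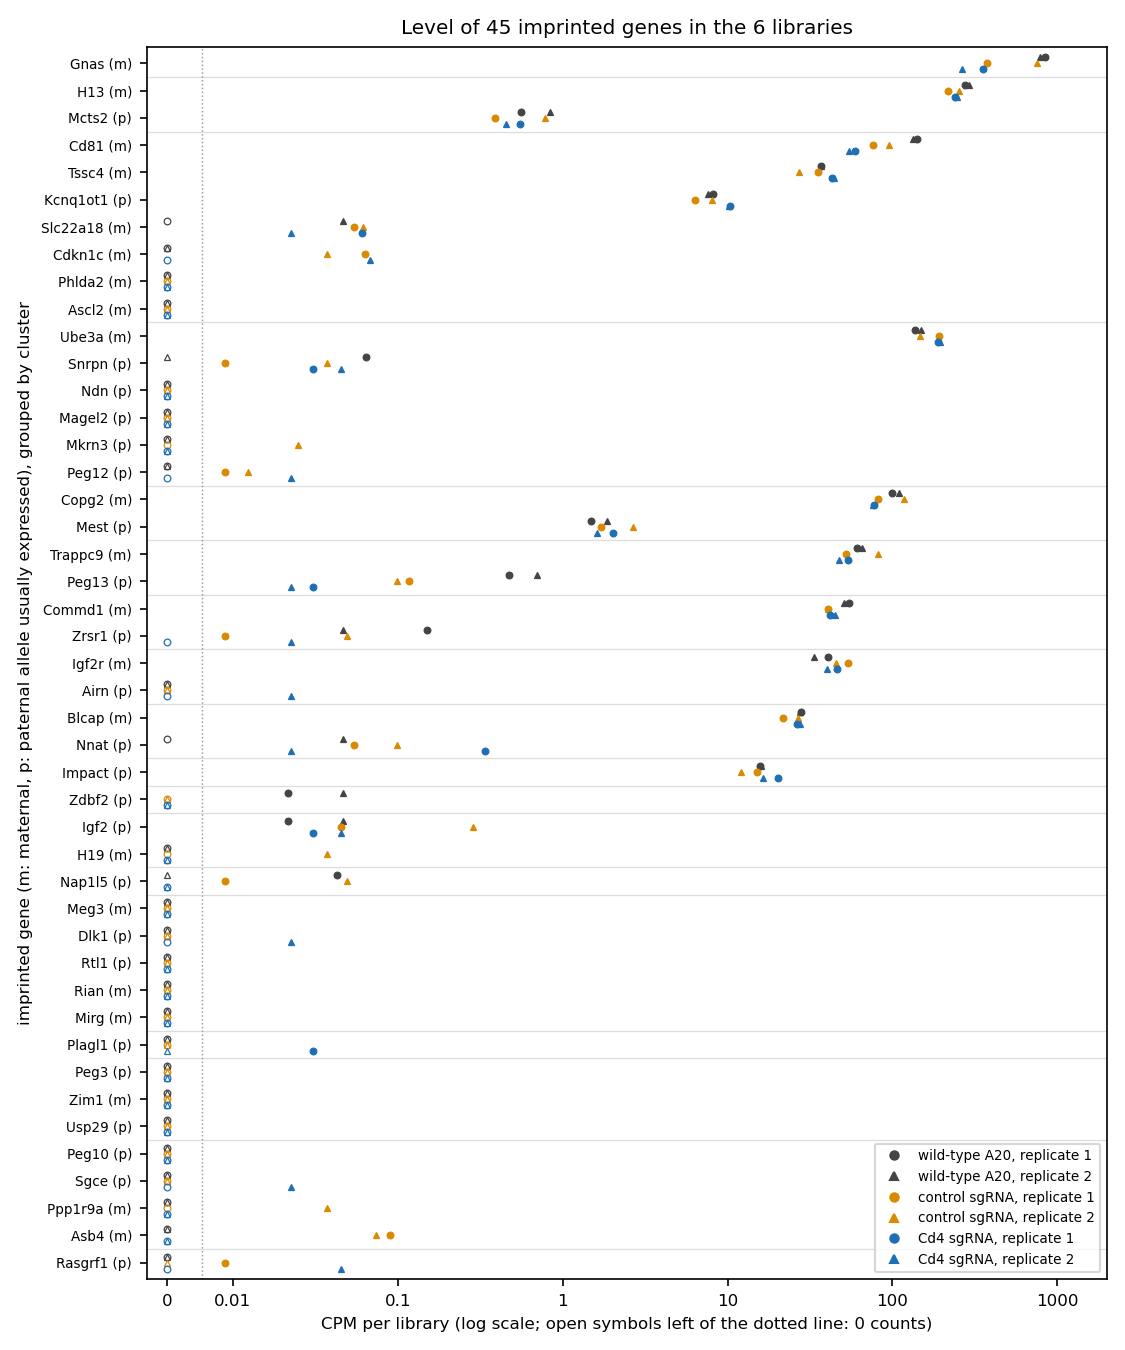
Level of each of the 45 genes in each library (x axis, CPM on a log scale; symbols left of the dotted line are libraries with 0 counts), with genes grouped by imprinted cluster and marked m or p for the allele usually expressed. The 30 untested genes sit at 0 or at most 0.336 CPM in every library, and 14 of the 15 tested genes lie to the right of that level, while Peg13 lies below it in the transduced libraries.

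The 7 genes over the floor without reaching the tests had few counts, given here as wild type, then control sgRNA, then Cd4 sgRNA. Igf2, the fetal growth factor, had 1 and 1, then 5 and 23, then 1 and 2 counts. Nnat, a membrane protein of neurons, had 0 and 1, then 6 and 8, then 11 and 1. Asb4, an ankyrin repeat and SOCS box gene, had no count in wild type or Cd4 sgRNA cells, and 10 and 6 in control sgRNA cells. The highest value of Igf2 was thus in control sgRNA replicate 2 and that of Nnat in Cd4 sgRNA replicate 1, so that neither followed a group, while Asb4 was seen in both libraries of one group. Cdkn1c, which encodes the cell cycle inhibitor p57, had 0 and 0, 7 and 3, and 0 and 3 counts. Slc22a18, a transporter gene of the same cluster, had 0 and 1, 6 and 5, and 2 and 1. Zrsr1, a retrogene within Commd1, had 7 and 1, 1 and 4, and 0 and 1, and Nap1l5, a retrogene within Herc3, had 2 and 0, 1 and 4, and 0 and 0. The control sgRNA libraries were also the deepest. All 7 genes exceeded 3 counts in a control sgRNA library, against 1 gene each in wild type and Cd4 sgRNA cells. At the total of the shallowest library, the expected number of the 45 genes above 3 counts was 15.4 and 15 in wild type, 15 and 14 in Cd4 sgRNA cells, and 14.4 and 15.2 in control sgRNA cells.

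H19, the maternal non-coding RNA next to Igf2, had 3 counts in control sgRNA replicate 2 and none elsewhere. Summed over the 30 untested genes, the level was 0.301 and 0.234 CPM in wild type, 0.351 and 0.803 in control sgRNA cells, and 0.488 and 0.361 in Cd4 sgRNA cells, so the 30 genes together stayed below 1 CPM in every library. The range of the transduced libraries lay above that of wild type. Without control sgRNA replicate 2, the highest sum over the 30 genes was 0.488. That library also had the highest sums of fibroblast (0.532 CPM), myeloid (6.38) and T cell (0.853) markers. Its sum of placenta and embryo markers (0.618) was the lowest of the transduced libraries. The part of these values in one another was not tested.

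Among the 15 tested genes, levels per kilobase of exon spanned from Gnas to Kcnq1ot1. In wild type, Gnas, which encodes the stimulatory G protein alpha subunit, stood at 134 ± 6.54 CPM per kb (SD, n = 2), Cd81 at 90.5 ± 3.57 and Commd1 at 64.0 ± 3.04. Copg2, H13, Tssc4 and Ube3a followed at 33.4, 28.5, 26.4 and 23.3 CPM per kb, then Blcap at 13.3, Trappc9 at 8.45, Impact at 4.59 and Igf2r at 4.16. Impact and Igf2r differed by less than the SD of Igf2r (0.560 CPM per kb). The lowest were Mcts2 (0.876 ± 0.249), Mest (0.604 ± 0.0976), Peg13 (0.124 ± 0.0340) and Kcnq1ot1 (0.0942 ± 0.00424), the last with a model of 83437 exonic bases. The first 11 genes in this order code for proteins and all but Impact are maternally expressed where they are imprinted, and the 4 lowest are paternally expressed.

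In control sgRNA cells against wild type, 3 of the 15 tested genes were lower and 0 were higher at an adjusted p under 0.05 (edgeR quasi-likelihood test, Benjamini-Hochberg adjustment over all genes). The genes were Cd81, Commd1 and Peg13. This share of 20% stands beside 28% of all 12430 tested genes, of which 14.5% were higher and 13.5% lower, so imprinted genes were not called more often than genes at large. At an unadjusted p under 0.05 there were 5 of 15, beside 42.6% of all genes, and of the 5 Igf2r was the only one with a higher level. DESeq2 called 1 gene higher (Igf2r) among 4 of 15, beside 33.4% of all genes, and voomLmFit called 0 higher among 3 of 15, beside 25.1%. Over the 15 genes the log2 fold changes had a median of -0.21, with 11 of 15 below 0, beside a median of -0.00095 over all tested genes. CPM did not overlap between the groups for 9 of the 15, beside 67.1% of all genes.

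In Cd4 sgRNA cells against wild type, again 3 of 15 were lower and 0 higher by the same test: Cd81, Gnas and Peg13. The background was 20.5% of all genes, 9.84% higher and 10.7% lower. An unadjusted p under 0.05 was reached by 6 of 15, beside 37.5% of all genes. DESeq2 called 1 gene higher (Ube3a) among 4 of 15, beside 28.6% of all genes, and voomLmFit called 0 higher among 3 of 15, beside 17.2%. The fold changes had a median of -0.22 on the log2 scale, 9 of 15 lay below 0, and the median was 0.0043 over all genes, and 12 of 15 did not overlap, beside 79.8% of all genes. Both comparisons use the same wild-type libraries, so shared names are not independent. One of these genes, Peg13, reached the tests only through its counts in wild type, so its difference from wild type is a description and no test. Without Peg13, 2 of 14 were called in each comparison with wild type.

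Between Cd4 sgRNA and control sgRNA cells, edgeR called 0 of 15 imprinted genes, beside 0.0724% of all genes (0.0241% higher, 0.0483% lower). An unadjusted p under 0.05 was reached by 6 of 15, beside 24.9% of all genes. voomLmFit called 0, beside 0.0563% of all genes, and DESeq2 called 3 of 15, beside 11.5% of all genes, with Gnas and Cd81 lower and Tssc4 higher. On the log2 scale the fold changes had a median of -0.18, beside -0.0081 over all genes. CPM did not overlap for 8 of 15, beside 59.6% of all genes.

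**Figure D2:**
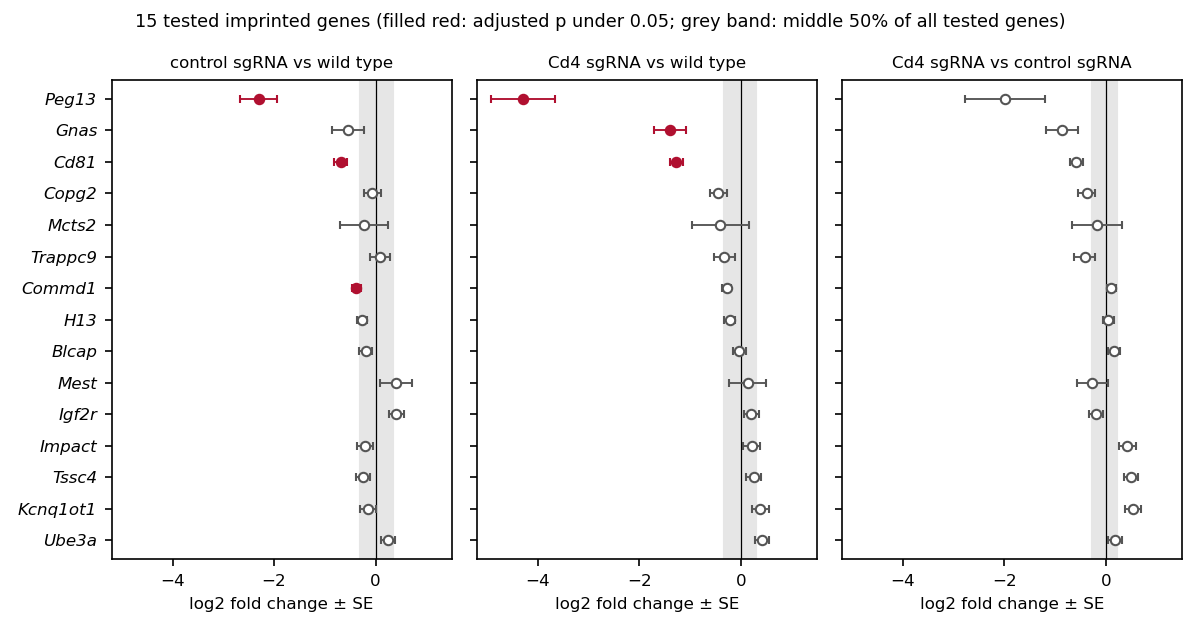
Log2 fold change ± SE of the 15 tested genes (rows) in the 3 comparisons (panels), with genes past an adjusted p of 0.05 filled in red and the middle 50% of all 12430 tested genes as a grey band. The red fill of Peg13 marks no test, since this gene passed the filter on low counts through wild type alone. Peg13, Cd81 and Gnas lie to the left of the band in all 3 panels, and Commd1 does with control sgRNA against wild type. Some genes that were not called also lie outside the band, and no gene past the threshold lies above 0.

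Cd81 (Entrez 12520) encodes a tetraspanin of the cell surface, and it lies at chr7:143052750-143067930 (GRCm38.p6) in the Kcnq1ot1 cluster. Cd81 stood at 141 and 134 CPM in wild type, 76.0 and 95.1 in control sgRNA cells and 59.5 and 54.5 in Cd4 sgRNA cells. All 4 transduced libraries were below both wild-type libraries, and both Cd4 sgRNA libraries were below both control sgRNA libraries. The log2 fold change of Cd81 was -0.69 ± 0.13 (SE, n = 2 per group, adjusted p = 0.013, edgeR) with control sgRNA and -1.27 ± 0.13 (adjusted p = 0.0037) with Cd4 sgRNA, against wild type. Between the transduced groups it was -0.59 ± 0.13 (adjusted p = 0.12).

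The call for Cd81 rested on the number of libraries in wild type. Without wild-type replicate 1 or 2 the log2 fold changes of Cd81 in control sgRNA cells were -0.65 and -0.72 (adjusted p = 0.13 and 0.092, edgeR) and in Cd4 sgRNA cells -1.24 and -1.31 (adjusted p = 0.074 and 0.052), and without Cd4 sgRNA replicate 2 the latter was -1.21 (adjusted p = 0.064). Among the 7 B cell markers, Cd79a, Cd79b and Blnk were also lower in both transduced groups against wild type (3 of 7 in each, 0 higher). Of all genes, 13.5% and 10.7% were lower with control sgRNA and Cd4 sgRNA. The log2 fold changes of Cd79a were -0.94 and -1.01 in that order. The 4 markers not called ran from -0.32 (Pax5) to 0.26 (Ebf1) with control sgRNA. With Cd4 sgRNA they ran from -0.67 (Cd22) to -0.12 (Pax5). The part of these markers in the values of Cd81 was not tested. In bulk RNA, fewer cells that express a gene and less RNA per cell cannot be told apart.

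The neighbours of Cd81 in the cluster did not share its values. Tssc4, a gene of the splicing machinery that starts just downstream of Cd81, was at 36.9 and 36.7 CPM in wild type, 35.3 and 26.9 in control sgRNA cells and 43.2 and 44.5 in Cd4 sgRNA cells. Kcnq1ot1, the paternal RNA that silences the cluster on its own chromosome, was at 8.11 and 7.61, 6.33 and 8.01, and 10.4 and 10.2 CPM in the same order. Both genes were highest in the 2 Cd4 sgRNA libraries, without overlap with the other groups. Neither passed the edgeR test in any comparison, and the largest log2 fold changes were 0.53 ± 0.16 for Kcnq1ot1 (adjusted p = 0.15, edgeR) and 0.49 ± 0.14 for Tssc4 (adjusted p = 0.14), between Cd4 sgRNA and control sgRNA cells. Kcnq1, whose intron holds the start of Kcnq1ot1, had 2 counts in all.

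Gnas (Entrez 14683) lies at chr2:174284320-174346744 and encodes several transcripts from alternative first exons under different imprints, which one row of counts pools. Gnas stood at 843 and 787 CPM in wild type, 376 and 750 in control sgRNA cells, and 356 and 265 in Cd4 sgRNA cells. Control sgRNA replicate 2 lay near wild type and replicate 1 near the Cd4 sgRNA libraries, a gap of 1.99-fold between replicates of one group. The log2 fold change of Gnas with Cd4 sgRNA against wild type was -1.39 ± 0.32 (adjusted p = 0.032, edgeR), and with control sgRNA -0.53 ± 0.32 (adjusted p = 0.25).

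The control sgRNA value of Gnas depended on the library kept. It was -0.12 without replicate 1 and -1.12 without replicate 2 (adjusted p = 0.71 and 0.051, edgeR). With Cd4 sgRNA the value of Gnas ranged from -1.20 without Cd4 sgRNA replicate 2 (adjusted p = 0.21) to -1.62 without Cd4 sgRNA replicate 1 (adjusted p = 0.13), and it was -1.35 and -1.44 without wild-type replicate 1 and 2 (adjusted p = 0.19 and 0.15). Nespas, an antisense RNA of the locus, overlaps 988 exonic bases of Gnas in GENCODE M21 (8.83%). Gm20721, annotated as protein-coding on the opposite strand, overlaps 1469 (13.1%). Reads of Nespas or Gm20721 in these bases cannot be told apart from those of Gnas if the counting ignored strand.

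**Figure D3:**
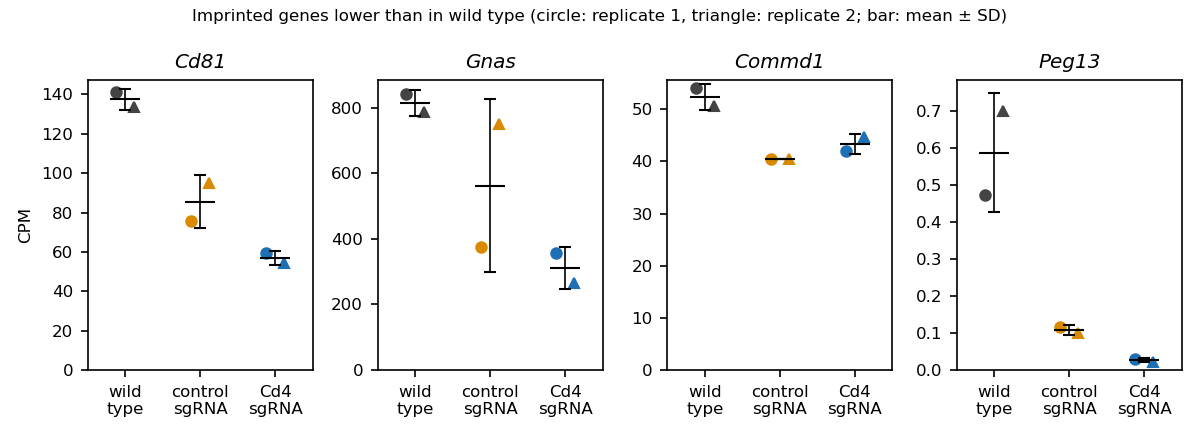
CPM of the 4 genes with an adjusted p under 0.05 against wild type in at least 1 comparison, by library (circle, replicate 1; triangle, replicate 2) with the mean ± SD of each group (n = 2). For Peg13, which reached the tests through wild type alone, this is a description and no test. Cd81, Commd1 and Peg13 are below wild type in all 4 transduced libraries, and the control sgRNA replicates of Gnas lie at 376 and 750 CPM.

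Commd1 (Entrez 17846), at chr11:22899728-22984539, encodes a COMM domain protein of copper transport and NF-kB control. Commd1 was at 54.1 and 50.6 CPM in wild type, 40.5 and 40.4 in control sgRNA cells and 42.0 and 44.7 in Cd4 sgRNA cells, with all 4 transduced libraries below wild type. The log2 fold changes were -0.38 ± 0.09 (adjusted p = 0.026, edgeR) and -0.27 ± 0.09 (adjusted p = 0.078). The first call was lost without either wild-type library (-0.33 and -0.42, adjusted p = 0.22 and 0.13) and without either Cd4 sgRNA library (both -0.37, adjusted p = 0.082 and 0.083), and likewise with only the 2 groups in the fit (-0.38, adjusted p = 0.083). Zrsr1, the paternal retrogene within Commd1, had at most 7 counts. Its parent gene Zrsr2, a splicing factor gene on chromosome X, was at 34.4 and 35.8 CPM in wild type and 46.5 to 50.6 in the 4 transduced libraries.

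Peg13 (Entrez 353342) is a paternally expressed non-coding RNA within an intron of Trappc9, at chr15:72805602-72810324. Peg13 had 22 and 15 counts in wild type, 13 and 8 in control sgRNA cells and 1 and 1 in Cd4 sgRNA cells, which were 0.473 and 0.701, 0.117 and 0.0989, and 0.0305 and 0.0226 CPM. The 3 groups did not overlap, and the Cd4 sgRNA libraries were below the floor of 3 counts. The summed level of Peg13 in control sgRNA cells was 20.1% of wild type, and in Cd4 sgRNA cells 4.76%. Peg13 passed the filter on low counts through wild type alone, where both libraries were over the limit of 0.219 CPM and no transduced library was, so its edgeR calls against wild type are no test of that difference. With Cd4 sgRNA against control sgRNA the adjusted p was 0.18 (edgeR).

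Both calls were also lost without either wild-type library, and the call with Cd4 sgRNA without either Cd4 sgRNA library. Trappc9, the trafficking complex gene that surrounds Peg13, was at 61.1 and 65.2 CPM in wild type, 52.5 and 81.8 in control sgRNA cells and 53.4 and 47.3 in Cd4 sgRNA cells. The control sgRNA libraries of Trappc9 lay on either side of wild type, and its log2 fold changes were 0.09 ± 0.21 and -0.33 ± 0.21 (adjusted p = 0.78 and 0.30). Intronic reads of Trappc9 that fall on the exon of Peg13 would be counted for Peg13.

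The other paternally expressed genes in the tests were not called in any comparison. Mest, a hydrolase-fold gene and a classical maternally methylated locus, was at 1.48 and 1.87 CPM in wild type, 1.71 and 2.66 in control sgRNA cells and 2.01 and 1.60 in Cd4 sgRNA cells. Its ranges overlapped in all comparisons. Mest shares 912 exonic bases (23.1% of its exons) with Copg2 on the opposite strand, and Copg2 had 38.6 to 67.2 times as many counts as Mest. Mcts2, a retrogene in an intron of H13, was at 0.560 and 0.841, 0.387 and 0.779, and 0.549 and 0.452 CPM. The Cd4 sgRNA libraries of Mcts2 were just below wild type and the control sgRNA libraries overlapped it. Its X-linked parent gene Mcts1 was at 21.7 to 26.5 CPM, and reads that fit both copies could be assigned to either. Impact, a regulator of the GCN2 kinase, was at 15.6 and 15.9, 15.1 and 12.1, and 20.2 and 16.4 CPM, so that wild type lay between the transduced groups.

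Of the maternally expressed genes that were not called, Ube3a and Igf2r had positive log2 fold changes in both comparisons with wild type. Ube3a, the ubiquitin ligase of Angelman syndrome, was at 138 and 149 CPM in wild type, 191 and 146 in control sgRNA cells and 189 and 193 in Cd4 sgRNA cells. The Cd4 sgRNA libraries were above wild type and the control sgRNA libraries overlapped it, with log2 fold changes of 0.42 ± 0.14 (adjusted p = 0.081, edgeR) and 0.24 ± 0.14 (adjusted p = 0.24). Igf2r, the receptor that clears IGF2, was at 40.7 and 33.6 CPM in wild type, 53.8 and 45.3 in control sgRNA cells and 46.2 and 40.1 in Cd4 sgRNA cells. For Igf2r the control sgRNA libraries were above wild type (0.41 ± 0.14, adjusted p = 0.081) and the Cd4 sgRNA libraries overlapped it. Airn, the antisense RNA that silences Igf2r on the paternal allele, had 1 count over the 6 libraries.

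Copg2, a coatomer subunit gene beside Mest, was at 99.8 and 109 CPM in wild type, 82.2 and 118 in control sgRNA cells and 77.8 and 76.2 in Cd4 sgRNA cells. The Cd4 sgRNA libraries of Copg2 were below the other 4 (-0.44 ± 0.17 on the log2 scale against wild type, adjusted p = 0.12, edgeR), and the control sgRNA libraries lay on either side of wild type. H13, a signal peptide peptidase gene, was at 275 and 291, 216 and 255, and 241 and 245 CPM, with all 4 transduced libraries below wild type. The log2 fold changes of H13 were -0.27 ± 0.10 and -0.22 ± 0.10 (adjusted p = 0.10 and 0.18, edgeR). Blcap, which surrounds the intronic gene Nnat, was at 27.8 and 27.4, 21.6 and 26.9, and 26.5 and 27.6 CPM, and the Cd4 sgRNA libraries overlapped wild type.

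The number of calls depended on the libraries in the fit. Over the 15 genes the median gap between replicates was 0.34 on the log2 scale in control sgRNA cells, up to 1.01 for Mcts2 and 0.99 for Gnas, against 0.10 in wild type and 0.12 in Cd4 sgRNA cells. With control sgRNA replicate 1 left out, 10 of the 15 were called in each comparison with wild type, and with replicate 2 left out again 10 in each. The share of all genes rose alongside, to 65.5% and 60.6% without replicate 1 and 60.5% in both comparisons without replicate 2. Without wild-type replicate 1 or 2, 0 of the 15 were called against wild type, beside 0.491% to 2.5% of all genes. Without Cd4 sgRNA replicate 1 or 2, the log2 fold change of Cd81 against wild type was -0.69 either way with control sgRNA. With Cd4 sgRNA it was -1.33 and -1.21. In the fit of Cd4 sgRNA and wild-type libraries alone, 10 of 15 were called, with 7 lower and 3 higher, beside 61.8% of all 12052 genes. Kcnq1ot1, Ube3a and Tssc4 were the 3 higher genes. The share of imprinted genes was furthest below that of all genes with thinned counts for control sgRNA (14.3% beside 28.8%), and with all genes kept despite low counts it was 9.09% beside 18.7% and 13.7%. Between the transduced groups, 9 of 15 were called without control sgRNA replicate 1 (62.1% of all genes) and 6 of 15 without replicate 2 (25.2%).

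**Figure D4:**
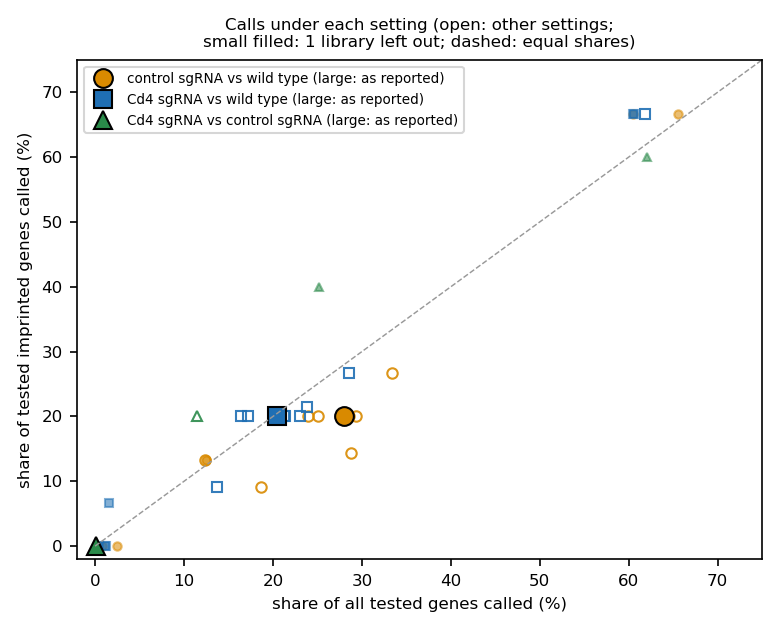
Share of the tested imprinted genes called (y axis, %) against the share of all tested genes called (x axis, %), for each comparison (colour) as reported (large), under other settings (open) and with 1 library left out (small filled). The points run from 0% to 66.7% of imprinted genes, on both sides of the dashed line of equal shares, with 40% beside 25.2% (Cd4 sgRNA against control sgRNA without control sgRNA replicate 2) and 14.3% beside 28.8% (control sgRNA against wild type, thinned) farthest from it.

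Genes that set, read or erase imprints were described as a list of 26, of which 23 were tested. In control sgRNA cells against wild type, 7 were higher and 1 lower, with a median log2 fold change of 0.34 beside -0.00095 over all genes and 34.8% called beside 28%. In Cd4 sgRNA cells 5 were higher and 0 lower, with a median of 0.33 beside 0.0043 and 21.7% called beside 20.5%. Both comparisons rest on the same wild-type libraries. Fewer were called without any 1 wild-type or Cd4 sgRNA library and more without either control sgRNA library. The share of all genes called moved the same way. Between the transduced groups edgeR called 0 of 23, beside 0.0724% of all genes, with 1 at an unadjusted p under 0.05, beside 24.9%. voomLmFit called 0 (0.0563% of all genes) and DESeq2 1 (11.5%). More were called there without either control sgRNA library, as was the case for all genes.

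Tet1, the endogenous dioxygenase gene, had 16 and 14 counts in wild type, 242 and 152 in control sgRNA cells and 61 and 73 in Cd4 sgRNA cells, which were 0.344 and 0.654, 2.18 and 1.88, and 1.86 and 1.65 CPM. All 4 transduced libraries were above wild type, with log2 fold changes of 2.19 ± 0.33 and 1.96 ± 0.37 (adjusted p = 0.0072 and 0.018, edgeR). Reads of the TET1CD transgene that align to Tet1 and reads of the endogenous gene cannot be told apart in these counts. Dnmt3a, the de novo methyltransferase that sets imprints in germ cells, was at 84.3 and 80.9 CPM in wild type, 175 and 159 in control sgRNA cells and 182 and 175 in Cd4 sgRNA cells. Its log2 fold changes were 1.01 ± 0.09 and 1.11 ± 0.09 (adjusted p = 0.0018 and 0.0019).

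Dnmt1, the maintenance methyltransferase, was at 297 and 286 CPM in wild type, 440 and 376 in control sgRNA cells and 378 and 357 in Cd4 sgRNA cells, higher in the first comparison (0.49 ± 0.11, adjusted p = 0.020, edgeR) and past no threshold in the second (0.33 ± 0.11, adjusted p = 0.069). Eed and Suz12, subunits of Polycomb complex 2, had log2 fold changes of 0.41 and 0.43 in control sgRNA cells and of 0.61 and 0.43 in Cd4 sgRNA cells. Hells, a chromatin remodeller needed for DNA methylation, was called with Cd4 sgRNA only (1.04 ± 0.22, adjusted p = 0.025, beside 0.74 ± 0.22 and 0.051 with control sgRNA), and the difference between the groups was 0.30 ± 0.22 (adjusted p = 0.40). Tet2 and Ehmt2 were higher with control sgRNA (1.15 ± 0.30 and 0.73 ± 0.20, adjusted p = 0.034 and 0.040), and Tet3 was lower (-0.35 ± 0.09, adjusted p = 0.037).

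**Figure D5:**
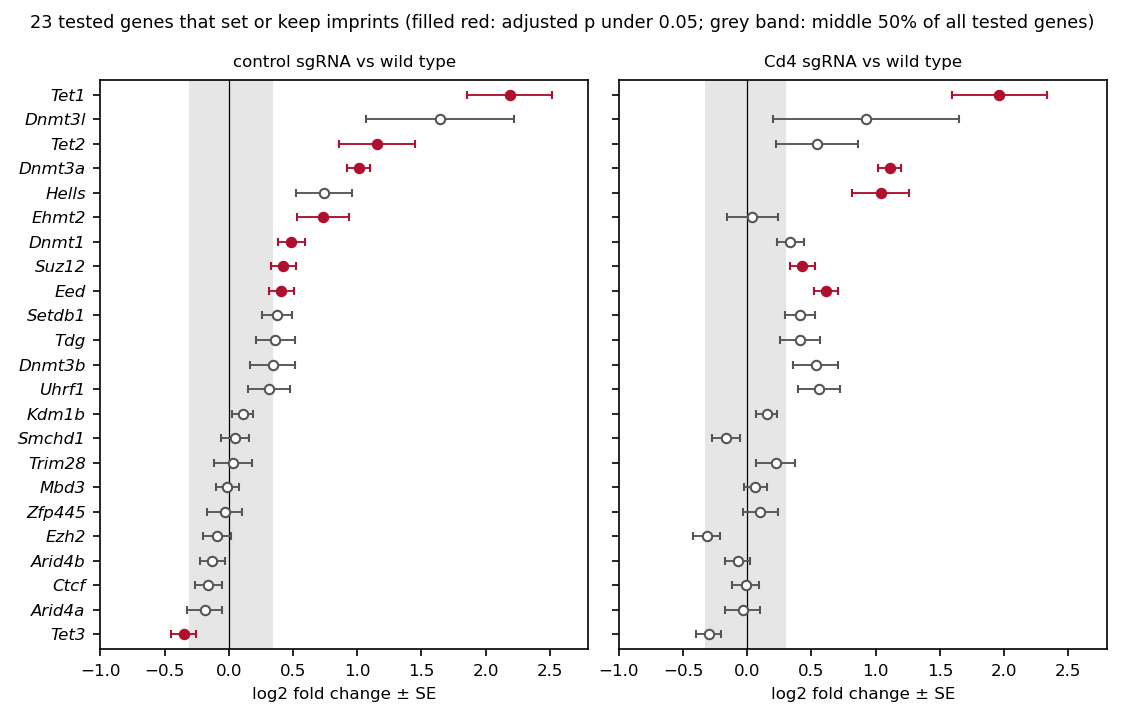
Log2 fold change ± SE against wild type of 23 tested genes that set, read or erase imprints, in control sgRNA (left) and Cd4 sgRNA cells (right), with genes past an adjusted p of 0.05 filled in red and the middle 50% of all tested genes as a grey band. Tet1 and Dnmt3a lie to the right of the band in both panels, and Tet3 near its left edge.

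Trim28, Setdb1 and Zfp445, whose proteins act at methylated imprinted regions, were not called and had log2 fold changes of 0.03, 0.37 and -0.03 in control sgRNA cells and of 0.22, 0.41 and 0.10 in Cd4 sgRNA cells. Zfp57 was below the filter, with 10 and 2 counts in wild type, 5 and 11 in control sgRNA cells and 1 and 3 in Cd4 sgRNA cells. Ctcf, which binds the unmethylated control region between H19 and Igf2, had log2 fold changes of -0.16 and -0.01. Dppa3 and Ctcfl had at most 1 and 2 counts.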

How the data were processed

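RNA-seq of wild-type, control sgRNA and Cd4 sgRNA A20 cells (2 libraries each, grouped by the sample titles) was analysed. Paired-end reads of 66 bp were aligned by the authors to mm10 (GRCm38) using Rsubread, and featureCounts assigned them to Entrez genes of the RefSeq annotation shipped with it. The files hold raw counts as deposited, which had not been normalized. Whether the counting used strand, and how reads shared by genes were treated, is not given in the sources used here. A table of the whole series repeats these counts and was not used.

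Gene symbols and coordinates were taken from the RefSeq table of GRCm38.p6 (25275 identifiers matched), and exon overlaps from GENCODE M21. Genes without a symbol or with a duplicated one, mitochondrial genes, rRNA genes and genes of type other were removed as in the study's methods, and filterByExpr (default settings) left 12430 genes. These were scaled by TMM and tested in one fit of the 6 libraries with edgeR 4.0.16 (glmQLFit and glmQLFTest, robust, two-sided), with Benjamini-Hochberg adjustment at 0.05. SE was derived from the log2 fold change and the F statistic, as their quotient after taking the root of F. voomLmFit with limma 3.58.1, the test of the study, and DESeq2 1.42.0 were alternatives, in R 4.3.3. The scripts were tested on simulated data. An exact permutation test of 2 libraries against 2 could not go below p = 0.333 and was not used. CPM values were computed here from counts and TMM factors, and reads carry no molecular identifiers. The methods call the replicates independently repeated samples.

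The 45 imprinted genes and all lists were chosen with earlier results of these data known. Every imprinted gene is accounted for, with values in every library for each gene tested. From the lists of imprinting regulators and of other imprinted genes, up to 5 genes per direction with the smallest p among those past the threshold were named. Tet2, Ehmt2, Axl and the regulators that were not called were named after their values were seen. A further B cell marker is not reported here.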

Additional observations from a re-analysis of the deposited data

How the results depend on the processing

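Each comparison was repeated with voomLmFit, DESeq2, RLE size factors, library size only, counts thinned to the shallowest library, a replicate block, a fit of only the 2 groups compared, all genes kept despite low counts, all gene types kept, each library left out, and the legacy quasi-likelihood method, the last chosen after seeing the data. For control sgRNA against wild type the count of higher imprinted genes went from 0 to 1 with DESeq2 and 1 with the replicate block, and with a library left out it was 0 to 4 higher and 0 to 8 lower. For Cd4 sgRNA against wild type it went to 1 higher with DESeq2, 1 higher with thinned counts, and 3 higher and 7 lower with only the 2 groups compared, and with a library left out to 0 to 3 higher and 0 to 7 lower. Between the transduced groups it was 1 higher and 2 lower with DESeq2, and 0 to 4 higher and 0 to 5 lower with a library left out. The cause was not tested, except that a group left with 1 library has fewer samples, and that library is assumed to vary like the others.

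The deviations of same-numbered libraries correlated at 0.020, -0.032 and -0.14 between groups, so no shift shared by replicate number was seen. Such correlations cannot exclude that samples were prepared in pairs. With the replicate block the adjusted p of Commd1 with control sgRNA was 0.0501, just over the threshold, Igf2r became the 1 higher gene there, and the calls in the other 2 comparisons were those reported. Thinned counts left Peg13 out of the tests. Signs turned in 14 of 716 values of single genes, in no case for a gene that was called in that comparison as reported. With control sgRNA against wild type these were Trappc9 (-0.26 to 0.38 with a library left out, lowest without control sgRNA replicate 2), Mcts2 (-0.74 to 0.26, above 0 without wild-type replicate 2 and without control sgRNA replicate 1), Copg2 (-0.34 to 0.18, above 0 in the same settings) and Kcnq1ot1 (-0.33 to 0.016, highest without control sgRNA replicate 1). With Cd4 sgRNA against wild type they were Blcap (0.010 with library size only and 0.018 with thinned counts) and Mest (-0.068 to 0.31, below 0 without wild-type replicate 1 and without Cd4 sgRNA replicate 1). Between the transduced groups they were H13 (-0.072 to 0.17, lowest without control sgRNA replicate 1), Mcts2 (0.016 with thinned counts, -0.66 to 0.35 with a library left out, highest without control sgRNA replicate 2) and Mest (-0.58 to 0.059, highest without control sgRNA replicate 2). Depth limits the 30 untested genes, whose changes were not detectable here, and DNA methylation was not analysed here.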

Other observations

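A further 39 imprinted or cluster-neighbour genes, listed from general knowledge with earlier results of these data known, were examined in the same way. Of these, 38 were in the files, 13 were tested, 16 had 0 counts in every library, and 2 of the 25 genes below the filter exceeded 3 counts in a library. In control sgRNA cells against wild type 2 of 13 were higher and 3 lower (38.5% beside 28% of all genes), and with Cd4 sgRNA 2 were higher and 2 lower (30.8% beside 20.5%), over the same wild-type libraries. Between the transduced groups edgeR called 0 of 13, beside 0.0724% of all genes, with 3 at an unadjusted p under 0.05, beside 24.9%. voomLmFit called 0 (0.0563% of all genes) and DESeq2 1 (11.5%). Against wild type, fewer were called without any 1 wild-type or Cd4 sgRNA library. More were called in all 3 comparisons without either control sgRNA library. The share of all genes called moved the same way.

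Begain, a gene next to the Dlk1-Meg3 cluster that codes for a postsynaptic protein, was at 5.47 and 7.75 CPM in wild type, 1.44 and 1.58 in control sgRNA cells and 1.43 and 1.63 in Cd4 sgRNA cells. Its log2 fold changes were -2.09 ± 0.22 and -2.06 ± 0.26 (adjusted p = 0.0029 and 0.0063, edgeR), although its silent neighbours in the cluster had at most 1 count. Ampd3, an AMP deaminase gene, was at 1.64 and 1.45, 3.21 and 3.98, and 3.88 and 3.75 CPM (1.19 ± 0.22 and 1.28 ± 0.24, adjusted p = 0.013 and 0.018). Nap1l4, a nucleosome assembly gene beside the Kcnq1ot1 cluster, was at 150 and 141, 110 and 94.5, and 100 and 102 CPM (-0.50 ± 0.10 and -0.52 ± 0.10, adjusted p = 0.017 and 0.021). Jade1, a histone acetyltransferase subunit gene, was at 32.0 and 29.9, 44.2 and 40.3, and 43.9 and 45.4 CPM (0.45 ± 0.10 and 0.53 ± 0.10, adjusted p = 0.020 and 0.018). In these 4 genes the transduced libraries did not overlap wild type. Pon2, a paraoxonase gene near Peg10, was lower with control sgRNA (-1.05 ± 0.22, adjusted p = 0.019) at 55.9 and 58.6 CPM in wild type, 34.2 and 20.8 in control sgRNA cells and 44.6 and 43.7 in Cd4 sgRNA cells.

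Axl, a receptor tyrosine kinase gene, was below the filter with 0 counts in both wild-type libraries, 2 and 25 in control sgRNA cells and 1 in each Cd4 sgRNA library. Control sgRNA replicate 2 was thus the highest library for Axl, as it was for Igf2 at 23 counts.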
